A study of Mus musculus with 6 samples.

Results

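The genes described here are 36 genes of glycolysis and pyruvate metabolism, chosen by name, among the 23284 genes of the table that the authors deposited. A row with the gene's own symbol was found for 32 of them. Another 3 were listed under older symbols, namely Pkm as Pkm2, Mpc1 as Brp44l and Mpc2 as Brp44, and Eno1 shared its row with its copy Gm5506. RNA-seq was performed on ventricles of C57BL/6 embryos at E9.5, with 3 embryos in each of the groups WT and KD. All embryos were tetraploid chimeras, whose own tissues stem from the ES cells put into a tetraploid host. WT embryos came from wild type ES cells. In KD embryos, of genotype Tbx5ua -/-, both alleles of the long non-coding RNA gene Tbx5ua, which is transcribed divergently from Tbx5, carried an insertion of polyadenylation signals, which cut its transcript short. The study names the strain of the ES cells that were edited as C57BL/6 J. The KD ES cells were clonal, and which clone gave which embryo is not given in the sources used here.

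Each gene had 1 FPKM value per group (fragments scaled to transcript length and to library size), the authors' value for the 3 embryos together. No value of a single embryo was at hand, so no SD, interval or test could be computed, library depths are unknown, and every difference below compares these 2 pools of embryos only. A difference is given as log2(FPKM + 1) in KD minus that in WT, a scale that understates the difference of genes with low levels. Calls of a fold of at least 1.5 were made on the same scale among the 11366 genes with a mean of both groups of at least 1 FPKM, a filter that all 36 genes passed. The targeted transcript is not analysed here and did not serve as a check of the labels. The tissue was checked with marker genes, which can show cardiac tissue but do not tell ventricle from atrium. The 7 cardiomyocyte markers summed to 19391 FPKM in WT and 18572 in KD, and the 3 skeletal muscle markers Myod1, Myf5 and Myog were listed at 0 in both groups. Of the 8 erythroid markers, Hba-a1 was read from a row merged with Hba-a2, at 0.0035 FPKM in WT and 0.0033 in KD. The 8 summed to 11451 FPKM in WT and 11529 in KD, so that both groups held transcripts of red blood cells. Their part in each value below is not known. The 6 epicardial markers summed to 47.0 FPKM in WT and 95.9 in KD and were all higher in KD. The 4 neural markers summed to 12.5 FPKM in WT and 27.1 in KD, nearly all of it from Tubb3 at 12.2 and 26.9 FPKM, with Sox2 listed at 0 in both groups. The part of these cells in the results below was not tested. In whole ventricles, a different number of cells of a type and a different amount of RNA per cell cannot be told apart.

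Glycolysis splits glucose into pyruvate in the cytosol. Pyruvate is then either reduced to lactate, which leaves the cell through monocarboxylate transporters, or carried into mitochondria, where the pyruvate dehydrogenase complex turns it into acetyl-CoA. The early embryonic heart relies on glycolysis and lactate production to a large extent, whereas the adult heart mainly oxidises fatty acids. Many steps are encoded by several isozyme genes with different tissue preferences, and many glycolytic genes are known targets of hypoxia-inducible factors.

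The levels of these genes hardly differed between KD and WT ventricles. Of the 36 genes, 0 differed by at least 1.5-fold, where 3.41% of all genes above the filter did so, 2.05% being higher and 1.36% lower in KD. This count rests on the pseudocount, since with a pseudocount of 0.1 or none it was 1, Slc2a4, at differences of 0.72 and 0.74. The share of 3.41% holds for the pseudocount of 1 only, so the count of 1 has no matching share here. At the pseudocount of 1, 0 of the 36 genes differed by at least 2-fold, where 1.21% of all genes did. The median difference was -0.01, compared with 0.00 for all genes above the filter, and 17 genes were higher and 19 lower in KD, where 50.7% of all genes above the filter were higher. Differences ran from -0.36 for Slc16a1, a lactate and pyruvate transporter, to 0.56 for Slc2a4, the insulin-responsive glucose transporter. At a lower threshold of 0.32 on the log2 scale there were 3 genes, against 14.3% of all genes above the filter. Slc2a4 and Aldoc were higher in KD (8.23% of all genes) and Slc16a1 was lower (6.08%). In all, 32 of the 36 genes differed by less than 1.2-fold, compared with 79.0% of all genes above the filter.

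**Figure D1:**
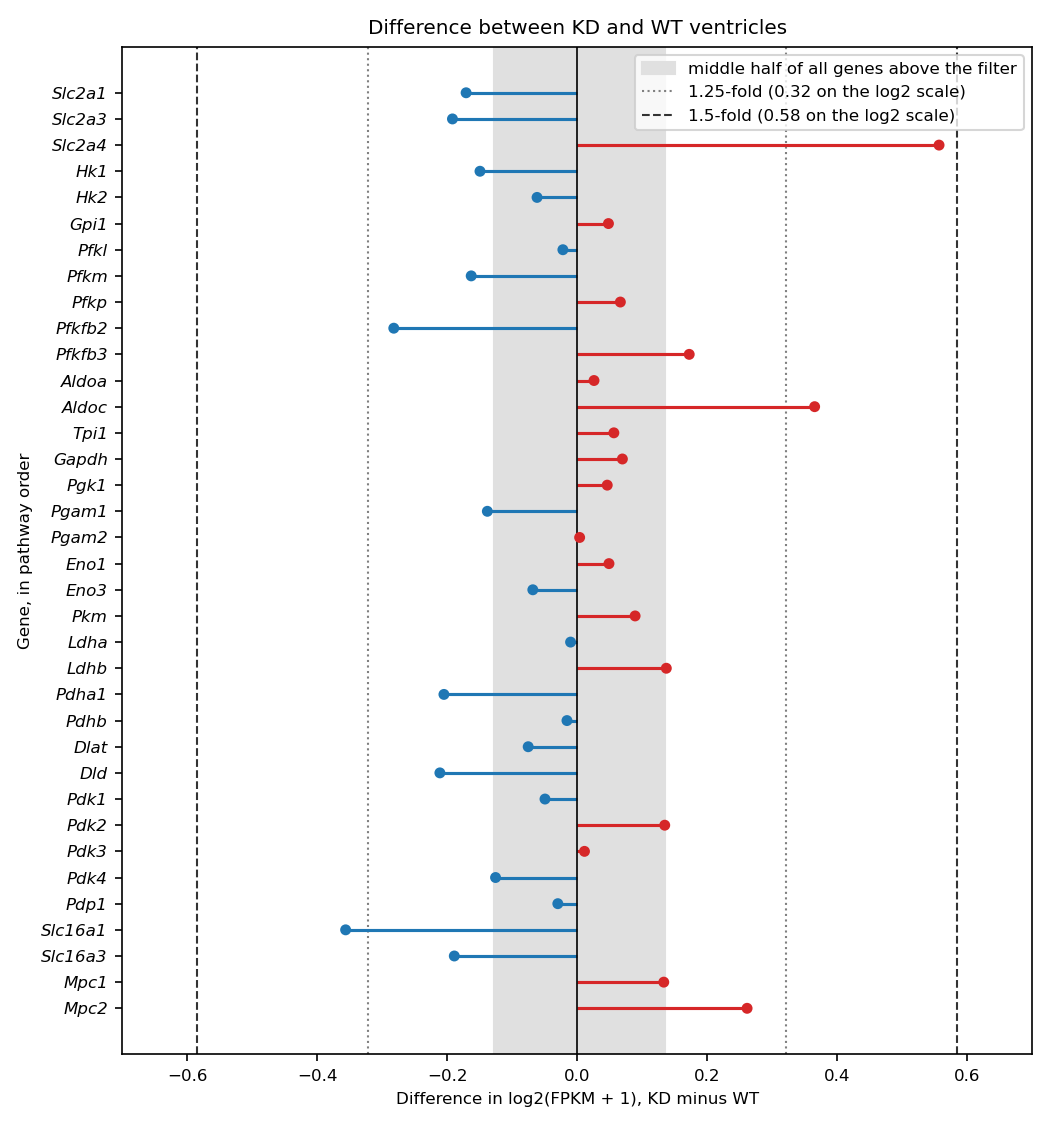
Difference in log2(FPKM + 1), KD minus WT, for the 36 genes in pathway order. Each point is 1 gene, red if higher and blue if lower in KD, the grey band spans the lower to the upper quartile of all genes above the filter (-0.13 to 0.14), and the dotted and dashed lines mark 0.32 and 1.5-fold. No point passes the dashed lines, and Slc2a4, Aldoc and Slc16a1 pass the dotted ones.

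In the whole table, differences past 0.32 were rarer in more abundant genes. Among these 36 they were found only at means below 50 FPKM, in levels that hold few genes. Of the 24 genes with a mean of at least 50 FPKM, all differed by less than 1.2-fold, compared with 91.2% of the 2019 genes at that level in the table, and their median absolute difference was 0.07, against 0.09 for the table. No gene of these 24 reached 0.32, which 6.09% of the table's genes at that level did. Of the 8 genes between 5 and 50 FPKM, Slc16a1 and Aldoc reached it, where 11.9% of the table did. Of the 4 genes between 1 and 5 FPKM, only Slc2a4 did, where 22.6% of the table did.

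**Figure D2:**
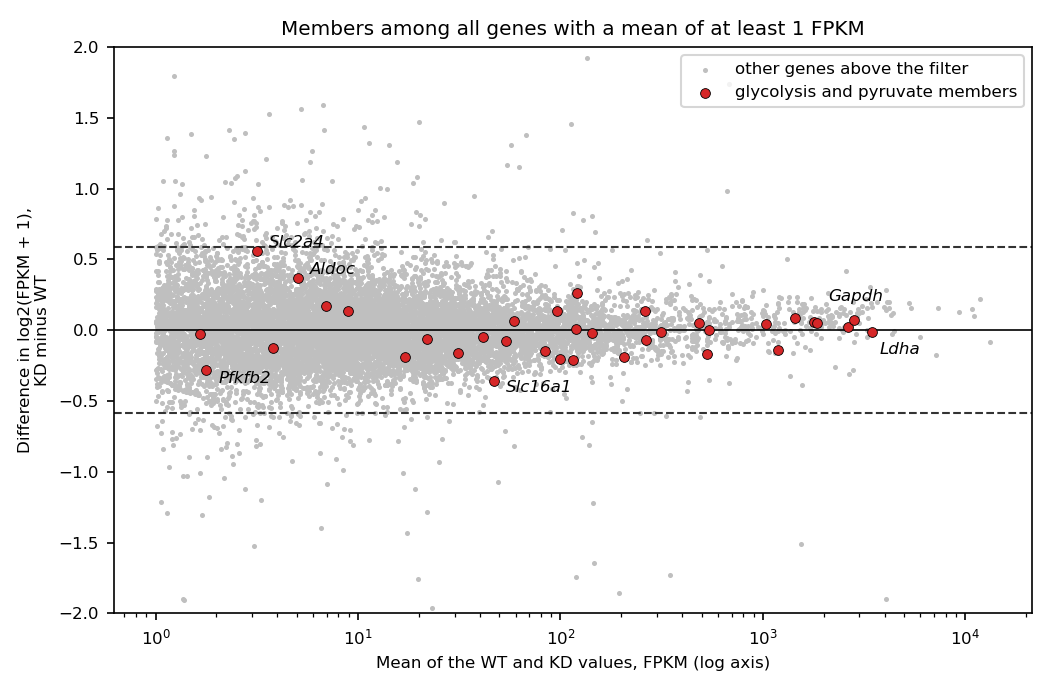
Difference in log2(FPKM + 1), KD minus WT, against the mean of both group values in FPKM on a log axis. Grey points are the genes above the filter, of which 66 with a difference beyond 2 in size lie outside the plot, red points are the 36 genes, and dashed lines mark 1.5-fold. The red points lie between the dashed lines and close to 0 at the right, where Ldha and Gapdh stand.

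Several of these genes were among the most abundant of the tissue. The 36 genes held 2.30% of the FPKM sum of all genes in WT and 2.28% in KD. Of that, 81.2% in WT and 81.8% in KD came from 8 genes with at least 1000 FPKM in both groups, a level that 170 genes of the table reached. The 8 genes were Ldha, Gapdh, Aldoa, Eno1, Tpi1, Pkm, Pgam1 and Pgk1, in this order of FPKM in both groups. At the low end, 7 genes stayed below 10 FPKM in both groups, namely Slc2a4, Pfkfb2, Pfkfb3, Aldoc, Pdk2, Pdk4 and Pdp1. Of the 36 genes 24 had the same rank in both groups, and no rank moved by more than 2 places.

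**Figure D3:**
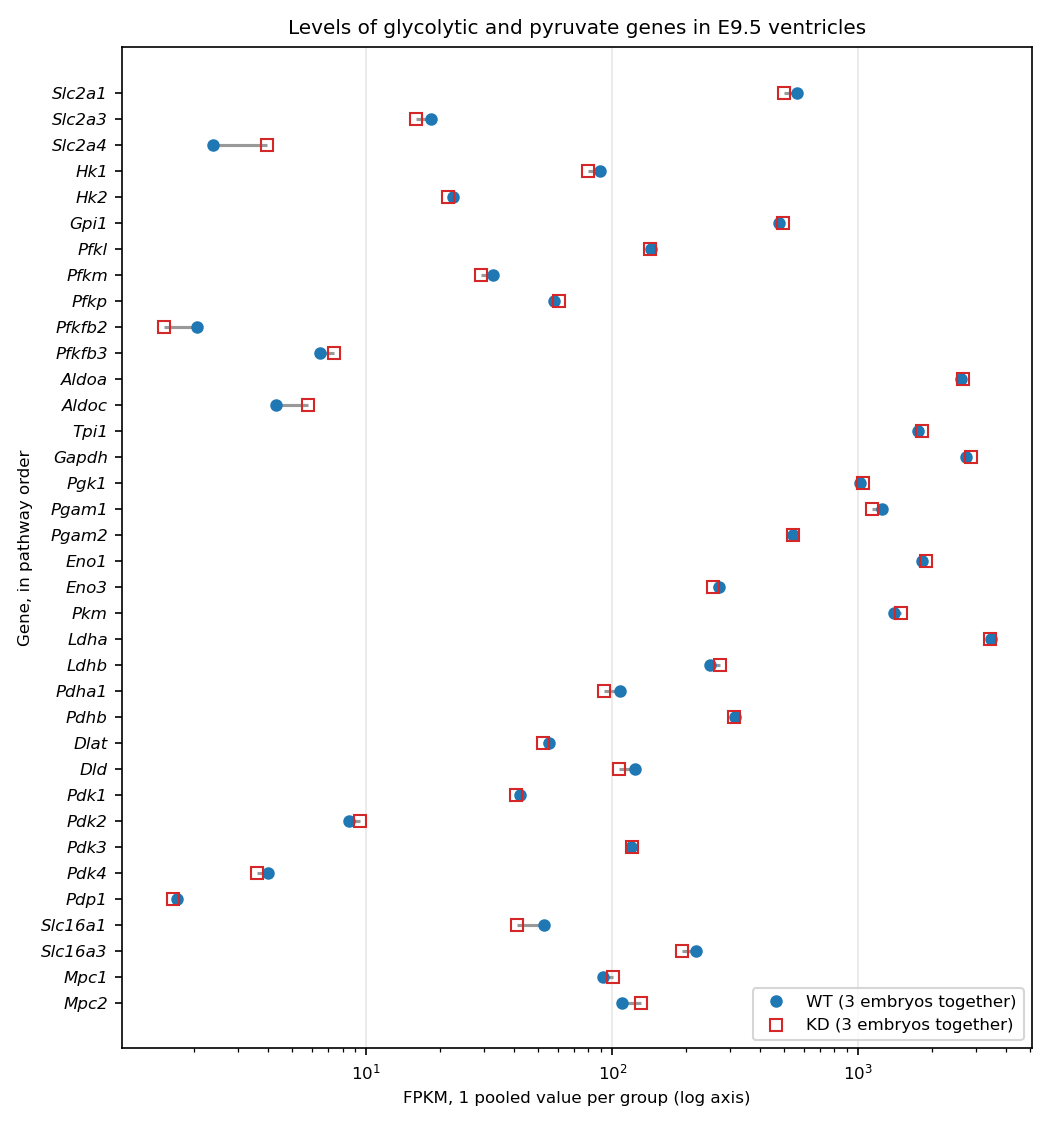
FPKM of the 36 genes in pathway order on a log axis, with 1 value per group for 3 embryos together. Filled circles are WT and open squares are KD. The circles and squares overlap for most genes, and the levels span from 1.502 FPKM (Pfkfb2 in KD) to 3453 FPKM (Ldha in WT).

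Glucose enters cells through transporters of the Slc2a family. Slc2a1, the transporter of most embryonic and red blood cells, had 561 FPKM in WT and 499 in KD, a difference of -0.17. Slc2a3, a transporter with high affinity for glucose, had 18.3 FPKM in WT and 15.9 in KD, a difference of -0.19. Slc2a4, which replaces Slc2a1 as the main transporter of the mature heart, had 2.37 FPKM in WT and 3.96 in KD, so that its ratio of 1.67 as deposited came from a difference of 1.59 FPKM. Slc2a1 and Slc2a3 were thus lower in KD, and the only higher one was Slc2a4, the rarest of these 3. Slc2a1 exceeded Slc2a4 by 237-fold in WT and by 126-fold in KD. Slc2a1 held 96.5% of the FPKM of these 3 transporters in WT and 96.2% in KD. Of 6 further family members, Slc2a8 and Slc2a12 passed the filter, with 6.74 and 1.29 FPKM in WT and 6.67 and 0.870 FPKM in KD.

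Hexokinases trap glucose in the cell as glucose phosphate. Hk1, the housekeeping form, had 88.7 FPKM in WT and 79.8 in KD, and Hk2, the form of adult heart and muscle, had 22.4 FPKM in WT and 21.5 in KD. Hk1 thus held 79.8% of the pair in WT and 78.8% in KD. Both were lower in KD, by 0.15 and 0.06 on the log2 scale. Hk3 and Hkdc1 were below the filter. Gpi1, which converts glucose phosphate to fructose phosphate, had 477 FPKM in WT and 493 in KD.

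Phosphofructokinase commits the sugar to glycolysis and is built from liver, muscle and platelet subunits. The liver subunit gene Pfkl led with 144 FPKM in WT and 142 in KD, followed by Pfkp with 57.7 and 60.5 FPKM and by Pfkm with 32.8 and 29.2 FPKM. The muscle subunit gene thus had the lowest FPKM of the family in this muscle tissue, with 13.997% of the family sum in WT and 12.6% in KD. Its difference was -0.16, and that of Pfkp was 0.07. Pfkm and Pfkp share their locus in the table with Senp1 and Pitrm1, which makes their values less certain, as it does for Hk1, which shares its locus with 2210417K05Rik, and for Tpi1, which shares its locus with Spsb2. Pfkfb2 and Pfkfb3 encode bifunctional enzymes that make or break down the fructose bisphosphate that activates phosphofructokinase. Pfkfb2, the cardiac form, had 2.04 FPKM in WT and 1.502 in KD, while Pfkfb3, a form with high kinase activity, had 6.46 FPKM in WT and 7.40 in KD. The share of Pfkfb3 in the pair was 76.0% in WT and 83.1% in KD, the widest shift of an isozyme share measured here, between genes that both lie near the low end of the range. Pfkfb2 shares its locus in the table with Yod1, and 25.1% of the windows of 50 bases in its transcript occur in that of another annotated gene, so this shift is less certain too. With Pfkfb1 and Pfkfb4 counted in the family, the share of Pfkfb3 was 47.9% in WT and 52.2% in KD.

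The enzymes from aldolase to pyruvate kinase make up the lower part of glycolysis. Aldoa, the muscle and embryonic aldolase, had 2622 FPKM in WT and 2670 in KD, and Tpi1, which interconverts the triose phosphates, had 1744 FPKM in WT and 1814 in KD. Aldoc, the brain aldolase, had 4.28 FPKM in WT and 5.80 in KD, a difference of 0.37, and held 0.163% of the aldolase sum in WT and 0.217% in KD. The FPKM sum of the 2 aldolase genes was therefore almost wholly that of Aldoa in both groups. Pgk1, the first enzyme of the pathway to make ATP, had 1016 FPKM in WT and 1050 in KD. Pkm, the pyruvate kinase of muscle and embryo, had 1402 FPKM in WT and 1492 in KD, a difference of 0.09. The values are per gene, so the M1 and M2 forms that arise from Pkm by alternative splicing could not be told apart. Of the 18 genes from hexokinase to lactate dehydrogenase, 11 were higher and 7 lower in KD, with a median difference of 0.04, and with the group values rescaled to the same sum 9 were higher.

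Phosphoglycerate mutase and enolase each pair a widely expressed gene with a muscle gene. Pgam1, the widely expressed mutase, had 1250 FPKM in WT and 1135 in KD, and Pgam2, the muscle mutase, had 540 FPKM in WT and 542 in KD. The muscle form thus already held 30.2% of the mutase sum in WT and 32.3% in KD. Eno1, the widely expressed enolase, had 1820 FPKM in WT and 1883 in KD in the row it shares with Gm5506, and Eno3, the muscle enolase, had 270 FPKM in WT and 258 in KD. The muscle enolase held 12.9% in WT and 12.0% in KD, so that in these pairs the share of the muscle isozyme differed by 2.12 and by -0.89 percentage points. The neuronal enolase gene Eno2 had 1.02 FPKM in WT and 1.33 in KD.

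Gapdh, which oxidises glyceraldehyde phosphate, was the internal control of the study's qRT-PCR, and its primers are shown because the level of this gene enters each such measurement.

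Gapdh forward: tgtgtccgtcgtggat
Gapdh reverse: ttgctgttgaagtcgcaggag

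On the longest protein-coding Gapdh transcript of GENCODE M21, of 1420 bases, the primers frame a product of 150 bases from position 951 to 1100. Gapdh lies on chromosome 6 from 125161852 to 125165583 (GRCm38). Its level was 2746 FPKM in WT and 2881 in KD, a difference of 0.07. With the group values rescaled to the same sum the difference was 0.04. The FPKM of Gapdh is uncertain, since 82.5% of the windows of 50 bases in this transcript also occur in transcripts of other annotated genes, the highest share among the 36 genes. Gapdh is known for its many processed pseudogenes. The forward primer occurs in full in transcripts of 41 other genes and the reverse primer in those of 78.

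Sequence shared with other genes was found at all levels of abundance. The share of windows of 50 bases found in another gene's transcript was 72.2% for Eno1, 68.0% for Pgk1, 41.5% for Pgam1, 34.4% for Pkm and 16.6% for Ldha among the abundant genes, and 30.3% for Pdhb, 29.6% for Mpc1, 27.0% for Ldhb and 25.3% for Gpi1 among the others. It was at least 10% for 14 of the 36 genes and 0 for 16, among them Slc2a4, Aldoc, Slc16a1, Pgam2 and Eno3. How the reads of such windows were assigned is not given in the sources used here, so the levels of the former genes are uncertain. Without these 14 genes, a choice made after seeing the data, 0 of the remaining 22 differed by at least 1.5-fold, with 8 higher and 14 lower in KD and a median difference of -0.06.

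Lactate dehydrogenase is a tetramer of subunits encoded by Ldha, which prevails in anaerobic tissue, and Ldhb, which prevails in adult heart. Ldha lies on chromosome 7 from 46845804 to 46855627. It was measured at 3453 FPKM in WT and 3428 in KD, the highest level of the 36 genes in both groups. Ldhb had 248 FPKM in WT and 273 in KD, a difference of 0.14. Ldha thus exceeded Ldhb 13.9-fold in WT and 12.5-fold in KD, and held 93.3% and 92.6% of their sum. The Ldha transcript prevailed in both groups.

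**Figure D4:**
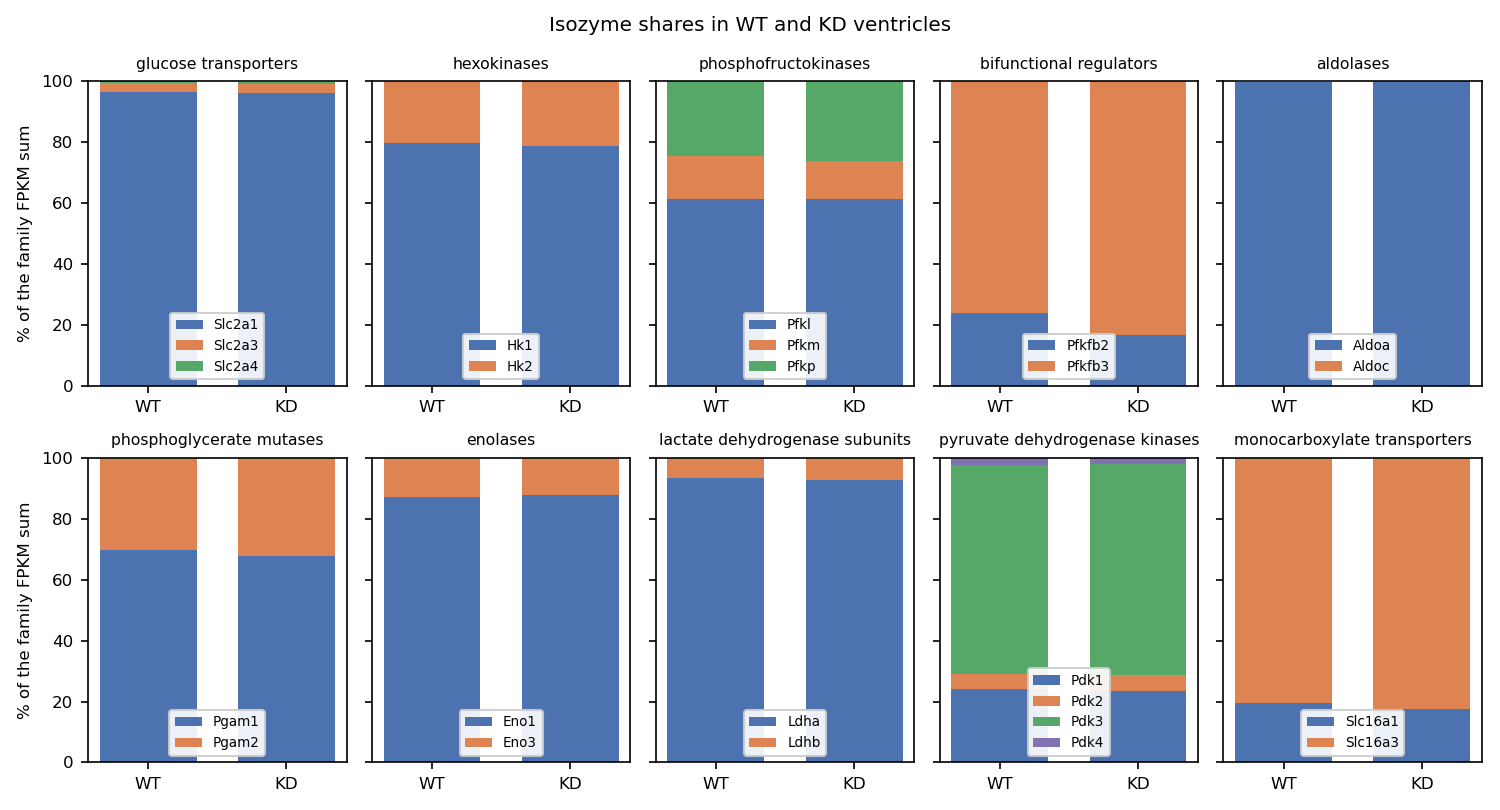
Share of each isozyme in the FPKM sum of its family, in percent, in WT (left bar) and KD (right bar) of 10 families, with 1 pooled value per group. The leading isozyme is the same in WT and KD in every family, and the largest shift is that of Pfkfb2, from 24.0% to 16.9%.

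Lactate and pyruvate cross the plasma membrane through Slc16a1 and Slc16a3. Slc16a1, which serves uptake and export and lies on chromosome 3 from 104638668 to 104658462, was measured at 52.9 FPKM in WT and 41.1 in KD, a ratio of 0.777 and with -0.36 the lowest difference of the 36 genes. Slc16a3, the exporter of strongly glycolytic cells, had 219 FPKM in WT and 192 in KD, a difference of -0.19. Both lactate transporters were thus lower in KD, as were Slc2a1 and Slc2a3. Hence 4 of the 5 plasma membrane transporters were lower, with a median of -0.19. This count was the same after rescaling to the same sum, which lowers KD against WT and so could not turn a lower gene higher. The sum of the 5 was 854 FPKM in WT and 752 in KD. Slc16a7, a further transporter of this family, had 1.62 FPKM in WT and 1.04 in KD. Bsg, whose product escorts both lactate transporters to the membrane, had 751 FPKM in WT and 809 in KD, in the opposite direction, and Emb, another escort, had 24.0 FPKM in WT and 21.5 in KD.

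Pyruvate enters mitochondria through a carrier made of Mpc1 and Mpc2. Mpc1 had 92.0 FPKM in WT and 101 in KD, and Mpc2 had 109 FPKM in WT and 131 in KD, differences of 0.13 and 0.26. Both subunits were higher in KD, Mpc2 by the most of any gene above 50 FPKM among the 36. In the pyruvate dehydrogenase complex all 4 subunit genes listed were lower in KD. Rescaling to the same sum left this as it was, but could not have turned a lower gene higher. Pdha1, the X-linked catalytic subunit that is switched off by phosphorylation, had 107 FPKM in WT and 92.8 in KD, while its partner Pdhb had 315 FPKM in WT and 311 in KD. The core subunit gene Dlat had 55.3 FPKM in WT and 52.4 in KD, and Dld, whose product also serves other dehydrogenases, had 124 FPKM in WT and 107 in KD. The genes of the complex thus differed by between -0.21 for Dld and -0.02 for Pdhb. Pdha1 shares its locus in the table with Map3k15.

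Pyruvate dehydrogenase kinases switch the complex off. Pdk3 was the leading kinase gene, with 119 FPKM in WT and 120 in KD, ahead of Pdk1, a hypoxia target, with 42.0 and 40.5 FPKM. Pdk2 had 8.50 FPKM in WT and 9.43 in KD, and Pdk4, the form induced in the adult heart by fasting and fatty acids, had 3.99 FPKM in WT and 3.58 in KD. The kinases kept their order in both groups, with 68.7% of their sum from Pdk3 in WT and 69.2% in KD. The sum of the 4 kinase genes was 174 FPKM in both groups. Pdp1, a phosphatase that switches the complex back on, was the lowest of the 36 genes in WT, with 1.69 FPKM in WT and 1.64 in KD. The other phosphatase gene Pdp2 had 3.01 FPKM in WT and 3.05 in KD.

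Because many glycolytic genes are known targets of hypoxia-inducible factors, sequences before the start sites were searched for ACGTG, a form of the core of the factors' binding motif. Other forms of the core were not searched. The search covered the 33 of the 36 genes that had a promoter entry. The promoters of Ldha, Pgk1 and Slc2a1, whose products stand for the end, the middle and the entry of the pathway, and of Slc16a1, the gene with the lowest difference, are shown. They are 250 bases long and end just before an annotated RefSeq start, written in the direction of transcription on GRCm38.p6. Capitals mark ACGTG on either strand (ACGTG or CACGT). Where both overlap they form CACGTG, the E-box that MYC and related factors bind.

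Ldha (chr7:46845554-46845803, plus strand): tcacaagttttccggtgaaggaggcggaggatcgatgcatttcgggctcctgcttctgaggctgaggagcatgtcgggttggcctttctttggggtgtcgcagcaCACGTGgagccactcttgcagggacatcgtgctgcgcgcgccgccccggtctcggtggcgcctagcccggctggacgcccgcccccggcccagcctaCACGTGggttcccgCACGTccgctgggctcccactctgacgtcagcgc
Pgk1 (chrX:106186850-106187099, plus strand): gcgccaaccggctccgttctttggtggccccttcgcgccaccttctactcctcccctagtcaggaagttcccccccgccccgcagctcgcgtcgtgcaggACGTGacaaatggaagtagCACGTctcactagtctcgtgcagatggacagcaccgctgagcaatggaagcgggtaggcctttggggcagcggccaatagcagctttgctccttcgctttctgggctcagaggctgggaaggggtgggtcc
Slc2a1 (chr4:119108495-119108744, plus strand): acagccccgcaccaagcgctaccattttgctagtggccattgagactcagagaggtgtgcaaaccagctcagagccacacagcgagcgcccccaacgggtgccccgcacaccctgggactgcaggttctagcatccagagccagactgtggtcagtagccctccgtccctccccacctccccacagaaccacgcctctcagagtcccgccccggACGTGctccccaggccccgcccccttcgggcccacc
Slc16a1 (chr3:104638414-104638663, plus strand): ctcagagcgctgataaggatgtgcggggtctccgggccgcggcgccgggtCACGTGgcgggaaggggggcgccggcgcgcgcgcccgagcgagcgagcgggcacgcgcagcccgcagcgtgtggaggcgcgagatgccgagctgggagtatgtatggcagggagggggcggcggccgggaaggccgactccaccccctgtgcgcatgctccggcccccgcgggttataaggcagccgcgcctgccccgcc

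The Ldha window shown holds 3 separate places with these letters, 2 of them an E-box, while the window before a second annotated Ldha start (chr7:46846832-46847081) holds 0, and that of Slc16a1 holds 1, an E-box. The letters were found in at least 1 window of 15 of the 33 genes with a promoter entry (45.5%), compared with 18.5% of the 27025 genes in the RefSeq promoter table. Counted by window, they were in 19 of the 50 windows of these genes (38%), compared with 16.6% of all 32851 windows. The windows of these 33 genes were also richer in G and C, with 60.1% against 53.2% over all windows. The part of this in the higher share was not tested. Slc2a3, Slc2a4 and Pdp1 had no entry. The difference between KD and WT spanned -0.36 to 0.17 among the 15 genes with the letters (median -0.02, 6 higher in KD) and -0.21 to 0.37 among the 18 without (median 0.03, 10 higher in KD), so that the ranges overlapped. A match of letters is a description and not a binding site. Hif1a, the gene of the oxygen-regulated subunit of the factor, had 117 FPKM in WT and 103 in KD, and Egln3, a hypoxia-induced prolyl hydroxylase gene, had 2.86 FPKM in WT and 3.21 in KD. Myc and Mycn, whose products raise the transcription of many glycolytic genes, differed in opposite directions, with Myc at 15.1 FPKM in WT and 21.2 in KD and Mycn at 72.6 FPKM in WT and 53.9 in KD.

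Other genes around the pathway also showed small differences. Of 72 further genes above the filter, for other isozymes, pyruvate use, gluconeogenesis, glycogen, the pentose phosphate pathway, the citric acid cycle and regulators, 33 were higher and 39 lower in KD, with a median difference of -0.02. Among them 1 differed by at least 1.5-fold, against 3.41% of all genes above the filter. The count was 0 after rescaling to the same sum and 3 or 4 with a pseudocount of 0.1 or none. The share of 3.41% holds for the pseudocount of 1 only, so the counts at other pseudocounts have no matching share here. The 1 gene past 1.5-fold at the pseudocount of 1 was the row named Pgm1 on chromosome 5. This phosphoglucomutase gene, which RefSeq now names Pgm2, had 8.18 FPKM in WT and 12.9 in KD. The other phosphoglucomutase, named Pgm2 in the table and Pgm1 by RefSeq, had 237 FPKM in WT and 238 in KD. In glycogen metabolism Gyg, the primer of glycogen synthesis, stood out by its level, with 1127 FPKM in WT and 1013 in KD. In the citric acid cycle 14 of 18 genes were lower in KD, with a median difference of -0.07. Differences there ran from -0.27 for Suclg2 to 0.13 for Mdh1. Rescaling to the same sum, which could only raise the count of lower genes, left it the same. Cs, the entry enzyme of the cycle, had 265 FPKM in WT and 234 in KD. Pcx, which feeds pyruvate into the cycle as oxaloacetate, had 7.21 FPKM in WT and 5.73 in KD.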

How the data were processed

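RNA from 6 ventricle samples (3 WT, 3 KD) was made into single-end Smart-Seq2 libraries. The submitters' processing notes name TopHat, Bowtie2 and Cuffdiff with build mm10, without versions. The authors deposited 1 table with an FPKM value per gene and group, in which KD is called KO. It also holds the authors' fold changes, test statistics, p-values and q-values, which were not used. The table had 0 further columns of per-sample values. Depth is unknown, which leaves the precision of low values unknown too. Limma on single embryos, planned for that case, could not be run.

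Differences were computed as log2(FPKM + 1), KD minus WT, among genes with a mean of at least 1 FPKM. Genes were counted past 1.5-fold, and 0.32 on the log2 scale and 2-fold, pseudocounts of 0.1 and 0, other filters and scalings were tried. Every member was named, of other genes those past 1.5-fold and further isozymes above the filter (1 is not reported here), and single others chosen after their values were seen. The members and lists were chosen with earlier results of these data known. Table starts count from 0 and 1 was added (9652 genes then matched a GENCODE M21 transcript start, 944 without). Sequences came from RefSeq (GRCm38.p6), GENCODE M21 and the study's primer list. The counting was tested on simulated data. Python 3.11.15, NumPy 2.4.6, pandas 2.3.3 and Matplotlib 3.10.9 were used.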

Additional observations from a re-analysis of the deposited data

How the results depend on the processing

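No paired analysis was possible because single embryos have no values in the table, and for the same reason leaving out embryos was not run. The count of 0 genes past 1.5-fold became 1, Slc2a4, with a pseudocount of 0.1 or none, and was 3 at a threshold of 0.32 on the log2 scale and 0 at 2-fold. The count of 1 for the 72 further genes became 9 at 0.32, with 4 higher and 5 lower in KD. Of all genes above the filter, 14.3% reached 0.32 and 1.21% reached 2-fold. The count for the 72 was 0 at 2-fold, 3 with a pseudocount of 0.1, 4 with none and 0 after rescaling to the same sum. This rescaling shifts the differences of abundant genes by -0.03. Rare genes shifted by unlike amounts, Slc2a4 from 0.557 to 0.552 and Pfkfb2 from -0.282 to -0.317. Rescaling also turned the direction of Aldoa, Pgam2 and Pdk3, whose differences were 0.03, 0.00 and 0.01. The median over the 36 genes lay between -0.06 and -0.00 under all filters, pseudocounts and scalings and with genes under older symbols, with shared loci or with shared sequence left out, the last 3 chosen after seeing the data. With further isozymes in the family, the share of Pfkfb2 differed by -4.57 points in place of -7.17, and that of Pfkfb3 by 4.28 in place of 7.17. Without a pseudocount the difference of Slc2a4 was 0.74, of Aldoc 0.44 and of Pfkfb2 -0.44. The share of all genes past 1.5-fold is given for the pseudocount of 1 only. For genes at a few FPKM the counting error is not known, since depth is not.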
